A study of Mus musculus with 138 samples.

Results

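The mesenchyme of the frontal suture, the fibrous seam between the paired frontal bones, was compared between E18.5, shortly before birth, and E16.5. The members were the 10 bulk RNA-seq libraries whose labels give the frontal suture and suture mesenchyme (SM), 5 of each age, out of 138 samples in the series. Every library held SM that had been cut from 1 C57BL/6J embryo by laser-capture microdissection (LCM), and no group carried a mutation, transgene or treatment. At E16.5, replicates 1 and 2 came from one litter and replicates 3, 4 and 5 from another, which makes 2 litters. At E18.5, replicates 1, 2 and 4 shared a litter and replicates 3 and 5 came from a litter each, which makes 3 litters. Each litter was of a single age, so age and litter cannot be told apart. The 10 libraries of the frontal osteogenic fronts (OF, the growing bone edges) of the same ages and the 30 SM libraries of the coronal, sagittal and lambdoid sutures served to show where the frontal SM differed.

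Sutures are the growth sites of the skull vault. Their mesenchyme keeps undifferentiated cells between the bone edges, while cells at the OFs become osteoblasts and lay down bone, and hedgehog, FGF, BMP and Wnt signals set the balance between the tissues. The frontal bones and the frontal suture derive mainly from the neural crest. In the mouse, the posterior part of the frontal suture closes in early postnatal life through a cartilage intermediate, whereas the other vault sutures remain patent.

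Total counts on genes ran from 10588823 to 18450955 per library at E16.5 and from 7487020 to 11934879 at E18.5, and mitochondrial genes took 16.46 to 22.64% and 21.5 to 33.5% of them. E18.5 replicate 3 stood apart, with the lowest total, the highest mitochondrial share and the lowest rank correlation with the other libraries of its age (0.952 to 0.957). Levels are given as counts-per-million scaled by TMM (CPM), with lists of 5 values in the order of replicates 1 to 5. The p-values below treat littermates as independent, so they do not measure the spread between litters. In the fit of all libraries the SM and OF of 1 embryo were also treated as independent. Osteoblast markers, 10 in all, were checked because bone at the suture edge could enter the SM. Their summed level was 64.6 to 112 CPM at E16.5 and 23.3 to 213 CPM at E18.5 in SM, far below the 2021 to 4630 CPM and 1878 to 8048 CPM in OF. Ibsp, a bone matrix protein, ranged over 0–34.3 CPM at E16.5 and 0–70.7 CPM at E18.5. Prrx1, a transcription factor of cranial mesenchyme, ranged over 645–897 CPM and 824–1060.3 CPM, so the SM carried the mesenchymal marker at both ages. In bulk tissue, fewer cells of a type and less RNA per cell cannot be told apart.

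The change with age was tested gene by gene. Of 19768 genes tested, 461 (2.33%) differed at an adjusted p under 0.05, of which 219 (1.11%) rose and 242 (1.22%) fell from E16.5 to E18.5 (edgeR's quasi-likelihood test, Benjamini-Hochberg adjustment, as for every adjusted p below). Of the 461, 446 were protein-coding, 85 rose and 104 fell more than 2-fold, and the ages did not overlap in 427, where such a separation was seen in 11.7% of all genes tested. The model took its estimate of spread from all 100 first LCM libraries. In a fit of the 10 frontal SM libraries alone 2831 genes (14.8%) were called, among them 460 of the 461, with 7.12% of all genes higher and 7.7% lower. That fit without E18.5 replicate 3 called 13.5%, of which 6.34% were higher and 7.2% lower. Without E18.5 replicate 3 the fit of all 100 libraries called 206 genes (1.03%, 0.516% in each direction), of which 205 were among the 461, and all 461 kept their direction. Calls were followed with each of the 10 libraries left out for 84 genes that passed, those described singly below, and 46 of them passed each time. The other 38 are given with the highest adjusted p found when a library was left out, and all 84 passed in the fit of the frontal SM libraries alone. Numbers in parentheses before an adjusted p are log2 fold changes from E16.5 to E18.5, with the SE after ±, and gene positions are on mm10. A gene list is counted by its members that passed the low-count filter. Its counts stand beside the shares of all genes, 1.11% higher and 1.22% lower, or 7.12% and 7.7% in the frontal SM libraries alone.

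**Figure D1:**
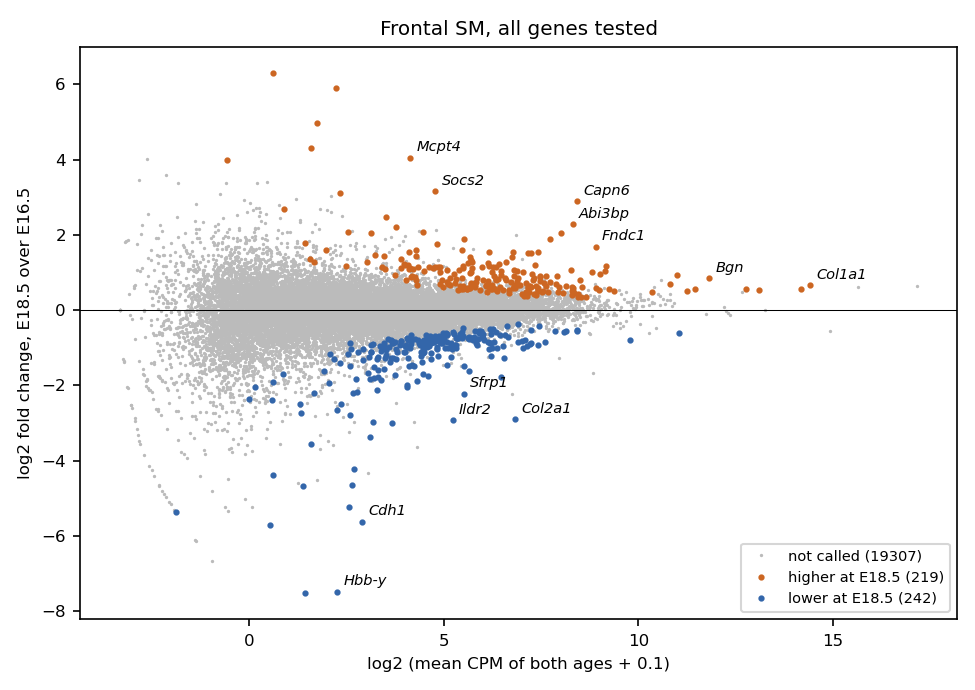
Log2 fold change from E16.5 to E18.5 (vertical axis) against the log2 of the mean CPM of both ages plus 0.1 (horizontal axis) for the 19768 genes tested in frontal SM. Coloured points passed the test at an adjusted p under 0.05 (219 higher, 242 lower), grey points did not, and named genes are labelled.

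Genes of DNA replication and mitosis fell together. Of 36 cell cycle genes listed, all of which were tested, 21 fell and none rose, the median log2 fold change was -0.79 against -0.005 over all genes tested, and all 36 estimates were negative. The ages did not overlap in 29 of the 36, where 11.7% of all genes tested were so separated and 1.22% fell. The genes that fell were those of the replicative helicase and of S phase (Mcm2, Mcm3, Mcm4, Mcm5, Mcm6, Cdc6, Tyms and Rrm2) and those of mitotic entry, spindle and exit (Ccnb1, Cdk1, Foxm1, Plk1, Aurka, Aurkb, Bub1, Bub1b, Birc5, Kif11, Tpx2, Top2a and Ube2c). Without E18.5 replicate 3 the count was 13 (Mcm3, Cdk1, Mcm6, Foxm1, Mcm4, Bub1, Birc5 and Bub1b were lost, at adjusted p of 0.0629 to 0.171), without E16.5 replicates 2 and 4 it was 10, and in the frontal SM libraries alone it was 32 (31 without E18.5 replicate 3). Without each of the other 9 libraries it was 15 to 20. It was 11 with the counts summed per litter and 7 with limma-voom.

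The promoters of 4 of these genes are shown, 2 that act in mitosis (Ube2c and Plk1) and 2 of the replicative helicase (Mcm2 and Mcm5), because members that move together may carry shared letters before their start sites. Each window runs from 250 bases before to 50 after the RefSeq start of the gene in GRCm38.p6 (mm10) and is written in the direction of transcription, at chr2:164769679-164769978 (plus strand), chr7:122159185-122159484 (plus), chr6:88898731-88899030 (minus) and chr8:75109259-75109558 (plus). Capitals mark a CCAAT box (CCAAT, or ATTGG on the other strand), a cell cycle homology region or CHR (TTTGAA or TTCAAA), and 2 forms of the E2F site (TTTCGCGC or GCGCGAAA, TTTGGCGC or GCGCCAAA).
Ube2c: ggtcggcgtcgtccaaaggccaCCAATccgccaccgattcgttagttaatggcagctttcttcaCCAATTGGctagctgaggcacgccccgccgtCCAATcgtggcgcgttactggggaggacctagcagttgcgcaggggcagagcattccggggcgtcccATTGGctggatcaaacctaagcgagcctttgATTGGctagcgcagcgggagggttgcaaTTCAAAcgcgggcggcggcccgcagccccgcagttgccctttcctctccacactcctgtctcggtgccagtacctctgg
Plk1: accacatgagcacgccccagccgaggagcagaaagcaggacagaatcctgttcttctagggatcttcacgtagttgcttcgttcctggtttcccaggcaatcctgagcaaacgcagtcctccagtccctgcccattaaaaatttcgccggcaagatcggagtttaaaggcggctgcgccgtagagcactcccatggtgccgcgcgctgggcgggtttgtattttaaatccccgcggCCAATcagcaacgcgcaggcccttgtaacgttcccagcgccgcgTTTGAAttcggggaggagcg
Mcm2: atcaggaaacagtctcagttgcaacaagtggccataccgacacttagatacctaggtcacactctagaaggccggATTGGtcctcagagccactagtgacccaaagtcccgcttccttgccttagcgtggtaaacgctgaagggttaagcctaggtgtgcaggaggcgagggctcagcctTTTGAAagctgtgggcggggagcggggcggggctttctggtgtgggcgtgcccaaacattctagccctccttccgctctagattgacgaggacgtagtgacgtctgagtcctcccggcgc
Mcm5: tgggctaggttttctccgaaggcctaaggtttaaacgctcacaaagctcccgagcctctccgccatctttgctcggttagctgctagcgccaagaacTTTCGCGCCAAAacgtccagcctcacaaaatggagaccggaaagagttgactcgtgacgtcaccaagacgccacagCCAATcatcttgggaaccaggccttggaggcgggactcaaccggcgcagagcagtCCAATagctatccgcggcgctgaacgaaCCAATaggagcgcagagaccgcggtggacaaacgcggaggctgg
In the Mcm5 window both E2F forms overlap, and in the Ube2c window the run CCAATTGG holds a CCAAT box on each strand. The CCAAT box stood in 76.7% of 30 windows of 29 listed cell cycle genes and in 37.4% of 32851 windows of all genes, or 37.3% of 15251 windows of the genes tested. The CHR stood in 46.7% against 17.9% of all and 12.4% of tested windows. TTTCGCGC stood in 13.3% against 0.323% and 0.551%, and TTTGGCGC in 13.3% against 0.514% and 0.852%. Of the 21 genes that fell, 14 held a CCAAT box, 8 a CHR, 3 TTTCGCGC and 3 TTTGGCGC. Only 29 of the 36 listed genes had a window, and a gene without one was counted as holding no motif. The counts among the 21 are therefore not comparable with the shares of windows. All of these are matches of letters, not sites shown to be bound.

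Ube2c, the ubiquitin-conjugating enzyme of the anaphase-promoting complex (chr2:164769898-164778822, plus strand), stood at 55.4, 53.2, 49.6, 53.1 and 43.5 CPM at E16.5 and at 22.3, 17.8, 17.9, 21.7 and 27.5 CPM at E18.5. It fell by 1.25 ± 0.23 (SE) on the log2 scale (adjusted p = 0.000172), from 51 ± 4.67 to 21.4 ± 3.97 CPM (SD, n = 5 each). Of its exon bases, 22.8% also lie in the muscle gene Tnnc2, which had no count in any of the 10 libraries.
Mcm2, a subunit of the replicative helicase (chr6:88883474-88898780, minus strand), stood at 33.8, 31.9, 38, 35.6 and 35.6 CPM at E16.5 and at 17.2, 17.4, 10.2, 15.2 and 19 CPM at E18.5, and fell by 1.14 ± 0.20 (adjusted p = 6.89e-05). In both genes every E18.5 library was below every E16.5 library, and the same held for Mcm5, Plk1 and Tyms. Mcm5, another subunit, went from 24.9–33.7 to 7.19–17.7 CPM (log2 fold change -1.11 ± 0.22, adjusted p = 0.00046). Plk1, a mitotic kinase, went from 15.2–22.2 to 2.62–9.22 CPM (-1.26 ± 0.27, adjusted p = 0.00162), with E18.5 replicate 3 lowest. Tyms, which makes thymidylate, went from 35.7–43.2 to 17.2–27.6 CPM (-0.87 ± 0.18, adjusted p = 0.00137). Mki67, the common label of cycling cells, ranged over 493–560.4 CPM at E16.5 and 286–378 CPM at E18.5 and did not pass (adjusted p = 0.114). The same list held 21 falls in the OF of the same ages, where 2.15% of all genes fell, and 31 in the mean change of the other SM, where 5.6% fell. No member's change differed between SM and OF or between frontal and other SM at an adjusted p under 0.05. The test against OF recovered few small changes on simulated counts, as given below. Among 9 cell cycle inhibitors tested, Rbl2, a pocket protein that represses E2F targets, rose from 49.5 ± 7.33 to 71.3 ± 15.3 CPM (adjusted p = 0.0349), with overlapping ages, and lost its call without 6 of the libraries (adjusted p up to 0.324, without E18.5 replicate 3). Cdkn1c and Cdkn1a, which block cyclin-dependent kinases, stood at 365 ± 67 and 342 ± 28.3 CPM and at 9.4 ± 3.17 and 7.5 ± 2.63 CPM and did not pass, and Cdkn2a was at 0. Of the exon bases of Rbl2, 21.0% are shared with other genes.

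**Figure D2:**
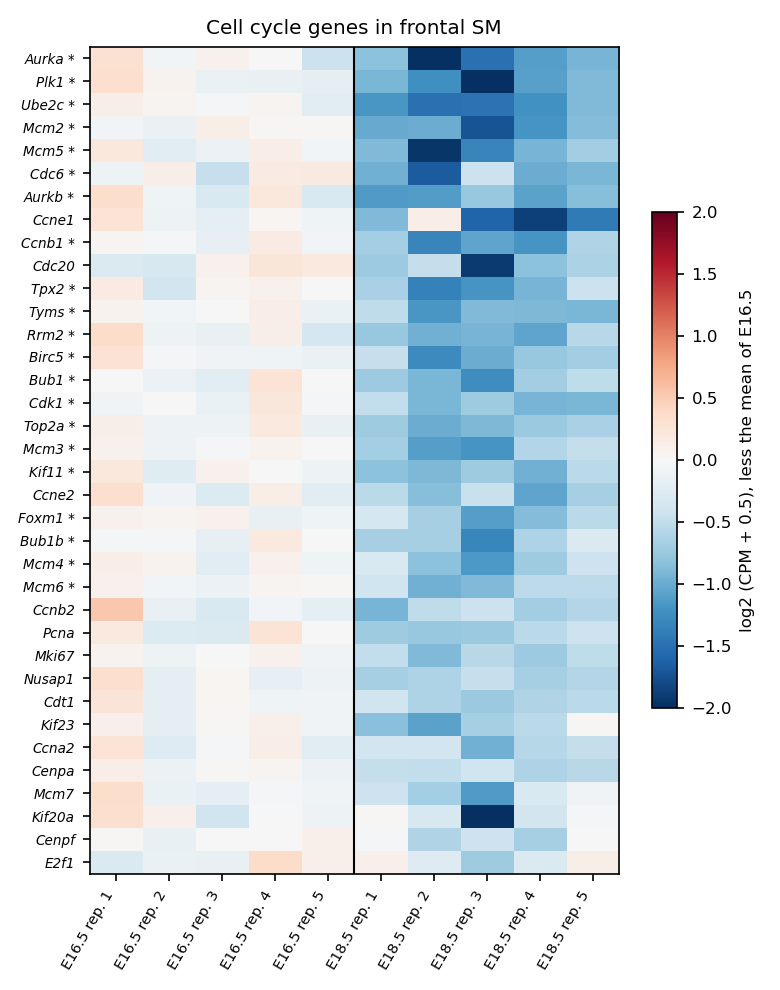
Level of the 36 cell cycle genes (rows) in each of the 10 frontal SM libraries (columns), as log2 of CPM plus 0.5 less the log2 of the E16.5 mean plus 0.5, with the colour scale ending at 2 in both directions. The 21 genes marked with an asterisk fell at an adjusted p under 0.05, and the E18.5 columns are blue for nearly all genes.

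The genes with the largest rises and falls were chosen among those whose ages did not overlap, so the gap itself is no finding in them. The largest rises included regulators of growth hormone and IGF signalling and matrix proteins. Socs2, a feedback inhibitor of growth hormone signalling (chr10:95385362-95417180, minus strand), stood at 5.96, 5.21, 4.34, 7.06 and 5.09 CPM at E16.5 and at 44.6, 54.7, 55.3, 47.5 and 44.5 CPM at E18.5. The ages were far apart with a narrow spread in each, and the rise was 8.91-fold (log2 fold change 3.16 ± 0.24, adjusted p = 1.14e-18). Capn6, a calpain without protease activity that binds microtubules (chrX:143802231-143827414, minus strand), stood at 132, 56.3, 50.1, 89.8 and 74.6 CPM at E16.5 and at 502, 649, 698, 625 and 536 CPM at E18.5. It rose 7.47-fold (2.9 ± 0.20, adjusted p = 1.77e-20), and its lowest E18.5 library was above its highest E16.5 library. Igfbp3, the main carrier of insulin-like growth factors in serum (chr11:7206086-7213923, minus strand), stood at 119, 61.9, 92.4, 127 and 100.1 CPM at E16.5 and at 443, 377, 381, 466 and 412 CPM at E18.5, a 4.16-fold rise (2.06 ± 0.27, adjusted p = 7.30e-08). Abi3bp, a matrix protein (chr16:56477878-56690135, plus strand), stood at 97.5, 162, 70.3, 95.5 and 116 CPM and at 399, 444, 669, 575 and 548 CPM, a 4.87-fold rise (2.28 ± 0.29, adjusted p = 4.74e-08). E18.5 replicate 3 was the highest library in Socs2, Capn6 and Abi3bp, and all 4 genes kept their calls without it. Fndc1, a fibronectin type III domain protein, rose from 182–306 to 613–889 CPM (adjusted p = 1.49e-07).

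The other large rises were spread over several functions. Npas2, a circadian transcription factor that pairs with BMAL1, went from 6.66–9.46 to 27.2–53.2 CPM (log2 fold change 2.08, adjusted p = 2.58e-05). Scube2, which helps release hedgehog ligands, went from 14.2–26 to 55.9–86.5 CPM (1.9, adjusted p = 0.00254). Fabp4, the fatty acid carrier of adipocytes, went from 0.562–7.77 to 16.49–27.1 CPM (2.21, adjusted p = 4.32e-05). Each of these 3 genes kept its call without any single library, as did Ndufa4l2 (2.48, adjusted p = 1.45e-05), a mitochondrial protein found in pericytes and in hypoxia. Retreg1, a receptor for autophagy of the endoplasmic reticulum, rose by 1.55, and Crebrf, a regulator of the CREB3 stress factors, by 1.6 (adjusted p = 3.68e-05 and 0.000233). Kazald1, an IGF-binding-protein-like secreted factor, rose by 1.61, and Cpm, a membrane carboxypeptidase, by 1.75 (adjusted p = 4.43e-05 and 0.00998). Itgbl1, an integrin-like secreted protein, rose by 1.55 (adjusted p = 0.0146), but not without E16.5 replicate 3 (0.0672), E16.5 replicate 5 (0.0545) or E18.5 replicate 3 (0.0563).

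Mcpt4, a protease of connective tissue mast cells, had the largest fold among the named rises. It stood at 1.62, 2.91, 0.142, 3.45 and 1.72 CPM at E16.5 and at 41.3, 53.6, 19.7, 28.1 and 21.4 CPM at E18.5 (log2 fold change 4.05 ± 1.00, adjusted p = 0.0113). Of 8 mast cell markers tested it was the only one that passed, and the median log2 fold change of the 8 was 1.83. In the frontal SM libraries alone 6 of the 8 rose, where 7.12% of all genes rose. The summed level of the 8 markers was 83.2 to 204 CPM at E16.5 and 358 to 574 CPM at E18.5, so the ages were apart. Cpa3, the mast cell carboxypeptidase, stood at 23.1, 61.7, 28.1, 67.9 and 49.3 CPM and at 165, 235, 204, 159 and 157 CPM and did not pass (adjusted p = 0.314), although its ages were apart (exact permutation p = 0.00794, two-sided, the smallest that 5 against 5 can give).

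**Figure D3:**
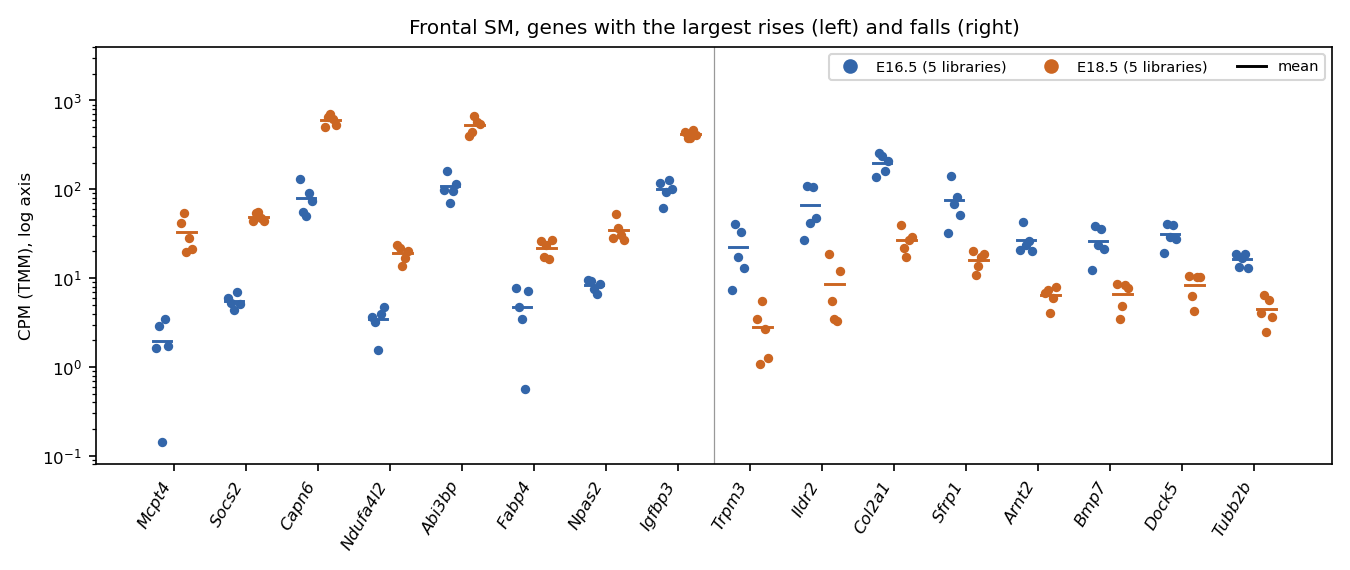
CPM on a log axis of the 8 genes with the largest rises (left) and the 8 with the largest falls (right) in frontal SM by the naming rule, with 1 point per library and a bar at the mean. The rule admits only genes whose ages do not overlap, so the gap in each of the 16 genes follows from the choice, and the points show its width and the spread within an age.

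The largest falls included developmental regulators and a cartilage collagen. Col2a1, the collagen of cartilage (chr15:97975602-98004695, minus strand), stood at 138, 256, 238, 161 and 207 CPM at E16.5 and at 39.4, 21.9, 17.2, 26.8 and 29.3 CPM at E18.5. It was 7.42-fold higher at E16.5 (log2 fold change -2.89 ± 0.59, adjusted p = 0.000986). Of 10 chondrocyte markers tested it was the only one that passed, 9 of the 10 estimates were negative, and Snorc was at 0 throughout. The median log2 fold change of the 10 was -1.2, and the ages were apart in 5. In the frontal SM libraries alone 5 of the 10 fell and 1 rose, where 7.7% of all genes fell and 7.12% rose. The summed level was 349 to 508 CPM at E16.5 and 205 to 354 CPM at E18.5. Col2a1 itself gave 138 to 256 and 17.2 to 39.4 CPM of these sums, so they do not show a fall of the other markers. Sfrp1, a secreted Wnt antagonist (chr8:23411502-23449632, plus strand), stood at 32.1, 142, 67.9, 83 and 52.1 CPM at E16.5 and at 20.5, 10.8, 13.6, 17.2 and 18.6 CPM at E18.5 (-2.22 ± 0.31, adjusted p = 6.23e-07). Bmp7, a bone morphogenetic protein (chr2:172868012-172940321, minus strand), stood at 12.4, 38.4, 23.4, 35.6 and 21.5 CPM at E16.5 and at 8.56, 3.49, 4.81, 8.41 and 7.68 CPM at E18.5 (-1.98 ± 0.34, adjusted p = 3.77e-05). In Sfrp1 and Bmp7, E16.5 replicates 2 and 4 were the highest libraries. Dock5, a Rac exchange factor, went from 19.3–40.7 to 4.23–10.6 CPM (-1.89, adjusted p = 4.74e-08), and Col26a1 from 60.6–87.5 to 22–28.3 CPM (-1.61, adjusted p = 8.14e-07). Nes, an intermediate filament of progenitor cells, went from 26.2–45.8 to 6.54–15.1 CPM (-1.75, adjusted p = 3.68e-05), and Bcl6, a transcriptional repressor, from 18.6–24.5 to 3.5–9.32 CPM (-1.72, adjusted p = 4.88e-05). All 4 kept their calls without any single library.

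Other large falls varied more between embryos or lost their calls with a library left out. Ildr2, a membrane protein of the immunoglobulin family, stood at 26.6, 109, 41.4, 106 and 47.8 CPM at E16.5 and at 18.9, 5.55, 3.5, 3.31 and 12.1 CPM at E18.5 (-2.93 ± 0.59, adjusted p = 0.000972). Arnt2, a bHLH-PAS transcription factor, fell by 2.05 on the log2 scale (adjusted p = 0.00382). Single libraries ended the calls of Trpm3, a cation channel (-3.00, adjusted p = 0.0453, up to 0.148 without E18.5 replicate 2), of Sned1, a matrix protein (-1.78, 0.0471, up to 0.242 without E16.5 replicate 2), and of Tubb2b, a beta-tubulin (-1.85, 0.0271, up to 0.122 without E18.5 replicate 3). The same held for the imprinted Nnat (-1.49, 0.0271, up to 0.126), the histone gene Hist1h2bm (-1.57, 0.0382, up to 0.193) and Tbx15 (-1.48, 0.0139, up to 0.0801), each highest without E18.5 replicate 3. Sned1 shares 19.6% and Ildr2 11.0% of its exon bases with other genes.

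E16.5 replicates 2 and 4, which came from different litters, were the 2 highest of the 5 E16.5 libraries in 10 of the 15 largest falls (66.7%), which was seen after the values were known. They were so in 25.6% of the 242 genes that fell, in 10.0% of the 219 that rose and in 10.1% of all genes tested. These libraries also held the most Ptgds and Cldn11, which mark the meninges, with Ptgds at 9.78, 56.2, 14.4, 80.5 and 21.6 CPM and Cldn11 at 3.69, 28.5, 4.91, 14.4 and 8.53 CPM at E16.5. At E18.5 Cldn11 stood at 0.939, 0.871, 0, 0.566 and 0.768 CPM, and it fell (adjusted p = 0.0251, up to 0.111 without E16.5 replicate 2), while Ptgds, at 11.6, 0, 0.583, 1.21 and 1.06 CPM, did not pass (adjusted p = 0.0517). The part of these markers in the falls was not tested. Without both libraries 158 genes (0.793%) were called, 0.376% of all genes higher and 0.417% lower, 7 of the 15 largest falls (Sfrp1, Bmp7, Dock5, Nes, Col2a1, Bcl6 and Col26a1) and 13 of the 15 largest rises among them.

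Several small leucine-rich proteoglycans (SLRPs), which bind collagen fibrils and growth factors, rose. Of 14 tested, 5 rose, where 1.11% of all genes rose, and none fell, with a median log2 fold change of 0.77. Aspn, an SLRP that inhibits TGF-beta (chr13:49544443-49567565, plus strand), stood at 391, 259.9, 323, 506 and 383 CPM at E16.5 and at 628, 818, 954, 730 and 677 CPM at E18.5 (1.03 ± 0.18, adjusted p = 9.00e-05). Bgn went from 2193–3161 to 3767–6890.4 CPM (0.85, adjusted p = 0.00135), with E18.5 replicate 3 highest. Ecm2 went from 15.2–23.4 to 34.4–46.9 CPM (1.02, adjusted p = 0.00278). Ogn (1.01, adjusted p = 0.0173) and Prelp (1.27, adjusted p = 0.0208) also rose, but Ogn not without E16.5 replicate 3 (0.0567) or E18.5 replicate 3 (0.185), and Prelp not without 4 of the libraries (up to 0.0745). Dcn and Lum, the SLRPs of loose connective tissue, stood at 1269 ± 229.8 and 1456 ± 174 CPM and at 915 ± 216 and 956 ± 153 CPM and did not pass. The count was 3 without E18.5 replicate 3, 3 without E16.5 replicate 3 and 1 without E16.5 replicates 2 and 4. In the frontal SM libraries alone 8 rose and 1 fell, with or without E18.5 replicate 3.

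Both type I collagen chains, Col12a1 and 2 collagen-modifying enzymes rose by less than 2-fold, and these calls depended on the libraries and on the scaling. Of 26 fibrillar collagens and collagen-processing enzymes tested, 5 rose, where 1.11% of all genes rose, and none fell (median 0.17). Col12a1, which decorates type I fibrils, stood at 8500.2, 6268, 6639, 7219.5 and 7698 CPM at E16.5 and at 10734, 10714, 8659, 11064 and 11353 CPM at E18.5 (0.53 ± 0.13, adjusted p = 0.0082), with E18.5 replicate 3 lowest of its age. Col1a1 stood at 18323, 16231, 16512, 15799 and 18295 CPM and at 23238, 29307, 33927, 26246 and 22571 CPM (0.67 ± 0.18, adjusted p = 0.0257), with E18.5 replicate 3 highest. Both separated the ages. The rises of Col1a1, Col1a2 (0.55, 0.0395), Plod2, a lysyl hydroxylase (0.56, 0.0268), and P4ha1, a prolyl hydroxylase (0.67, 0.0183), were lost without E18.5 replicate 3, at adjusted p of 0.145, 0.142, 0.142 and 0.0525. They were also lost without other libraries, 6, 8, 5 and 3 of the 10 in all, with the highest adjusted p for Col1a2 without E16.5 replicate 2 (0.147) and for P4ha1 without E16.5 replicate 3 (0.0683). The count of 5 was 1 without E18.5 replicate 3, 1 without E16.5 replicate 3 and 2 or 3 without 5 of the others, and in the frontal SM libraries alone 9 rose and 2 fell. With total counts in place of TMM, which moved the median log2 fold change of all genes to -0.20, none of the list rose and 2 fell. Type III and V collagens did not pass, Col3a1 at 4900 ± 637 and 4859 ± 442 CPM and Col5a1 at 1639.6 ± 217 and 1964 ± 318 CPM. Col1a1 and Col1a2 were also the only 2 of 18 bone matrix and mineralization genes to pass, and Mepe, Sost and Fgf23 were at 0.

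Matrix-degrading enzymes changed in both directions. Of 14 matrix metalloproteinases and TIMPs tested, 4 rose, where 1.11% of all genes rose. Mmp16, a membrane-type enzyme, fell (-0.86, adjusted p = 0.00112, from 117–180.2 to 62.1–102 CPM). Mmp14, the main membrane-type collagenase, rose from 214–270.5 to 324–427 CPM (0.62, adjusted p = 0.00622). Mmp23, Timp2 and Mmp13 rose by 1.06, 0.57 and 2.69 (adjusted p = 0.0165, 0.0173 and 0.0199), but not without 3 or 4 of the libraries (up to 0.0814, 0.086 and 0.116), and Mmp13 was low throughout, at 0.161–0.704 and 1.04–6.1 CPM. All 5 separated the ages. The 4 rises were 1 with total counts in place of TMM. Of 20 basement membrane and other collagens, Col24a1 rose from 42.8–56.6 to 85–121 CPM (1.02, adjusted p = 0.0017) and Col26a1 fell. Col6a1 also rose (0.51, 0.0461) and Col18a1 fell (-1.23, 0.0355), with calls lost without 9 and 6 of the libraries (up to 0.137 and 0.192).
Of 18 tendon, ligament and contractile genes, Tnn, tenascin-W of the periosteum (chr1:160085029-160153580, minus strand), rose. It stood at 124, 52, 61.9, 67.5 and 85.3 CPM at E16.5 and at 239.7, 236, 226, 238 and 171 CPM at E18.5 (1.51 ± 0.22, adjusted p = 8.14e-07), apart in every library. Scx, the tendon transcription factor, stood at 1.88 ± 0.628 and 5.84 ± 1.54 CPM and did not pass (adjusted p = 0.148). Of 17 elastic fibre genes, only Efemp1 passed (-1.23, 0.0355, up to 0.191 without E18.5 replicate 3), and Eln stood at 239 ± 23.2 and 337 ± 56.8 CPM.

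Among Wnt pathway genes, 3 of 34 rose and 1, Sfrp1, fell, where 1.11% of all genes rose and 1.22% fell. With total counts in place of TMM 1 of the 34 rose and 3 fell. Dkk3, a Dickkopf family protein (chr7:112116017-112159057, minus strand), stood at 343, 208, 241, 264 and 273 CPM at E16.5 and at 406, 534, 421, 498 and 449.7 CPM at E18.5 (0.8 ± 0.15, adjusted p = 0.000352), with no overlap. Sfrp2, like Sfrp1 a secreted antagonist, moved the other way, from 1187–1602 to 2458–2936 CPM (0.92, adjusted p = 0.0402), but its call was lost without 9 of the 10 libraries (up to 0.124). The receptor Fzd8 rose by 0.9 (adjusted p = 0.0186, up to 0.106 without E18.5 replicate 2). Without E16.5 replicate 2, 3 or 5 or E18.5 replicate 2 only 1 of the 3 rose. Axin2, a target of Wnt signalling, stood at 28.1 ± 5.68 and 32.1 ± 6.02 CPM and did not pass. Sfrp2 shares 16.1% of its exon bases with another gene.

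Of 31 BMP and TGF-beta pathway genes, Bmp7 and Id3 fell and Tgfb3 rose, whereas 5 fell and none rose with total counts in place of TMM. Id3, an inhibitor of bHLH factors and a BMP target, stood at 30.5, 33.7, 32.2, 30.8 and 30.4 CPM at E16.5 and at 17.7, 16.1, 17.2, 14 and 20.5 CPM at E18.5 (-0.88 ± 0.18, adjusted p = 0.000794), with a clear gap. Tgfb3, a TGF-beta ligand that shares 12.4% of its exon bases with other genes, rose by 0.67 (adjusted p = 0.0371, up to 0.14 without E18.5 replicate 2). The ligands Bmp4 and Bmp2 stood at 43.6 ± 5.92 and 24.4 ± 4.77 CPM and at 14.5 ± 1.85 and 15.1 ± 3.84 CPM and did not pass (adjusted p = 0.098 and 0.986).

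Of 16 hedgehog pathway genes, Ptch1, the receptor and a target of the pathway, passed, at 47.9, 38.8, 49.9, 45.3 and 29.7 CPM at E16.5 and 92.2, 50.1, 43.9, 107 and 63.1 CPM at E18.5 (0.75 ± 0.22, adjusted p = 0.0385). The ages overlapped, E18.5 replicates 1 and 4 were highest, and the call was lost without 6 libraries (up to 0.288 without E18.5 replicate 4). Gli1, the other common target, was also highest in this pair, at 14.9, 2.94, 1.17, 15.4 and 11.6 CPM against 8.16, 6.76, 8.19, 6.82 and 3.37 CPM, and did not pass (adjusted p = 0.651). Both libraries also held more of the osteoblast markers, with summed levels of 110 and 213 CPM, where the other E18.5 libraries had 23.3 to 73.5 CPM. The part of these markers in the Ptch1 values was not tested. Shh was at 0 in all 10 libraries, and Ihh was at or below 1.13 CPM.

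Of 19 FGF pathway genes, Spred1, an inhibitor of ERK signalling, rose by 0.56 (adjusted p = 0.0105, up to 0.134 without E18.5 replicate 3), with overlapping ages. Fgf20 was at 0, and Fgfr2 stood at 267 ± 37.8 and 298 ± 37.5 CPM and did not pass. None of 15 Notch pathway genes passed. Of 14 retinoic acid genes, Stra6, the retinol transporter, fell from 6.67–31.4 to 0.566–3.13 CPM (-3.38, adjusted p = 0.0298, up to 0.109 without E16.5 replicate 4), and E16.5 replicate 4 was highest. Among 24 semaphorins, ephrins and other guidance genes, Sema3d (chr5:12383385-12588948, plus strand) rose, from 99.9, 90.9, 90.9, 134 and 74.7 CPM at E16.5 to 204, 187, 303, 219.6 and 206 CPM at E18.5 (1.19 ± 0.23, adjusted p = 0.000295). Of the ephrin receptors, Epha3 rose from 47.7–74 to 94.6–106 CPM (0.79, adjusted p = 0.00379), and Epha7 fell from 73.9–136 to 36.7–62.8 CPM (-1.01, adjusted p = 0.0118, but 0.0629 without E18.5 replicate 2).

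Of 15 genes of the insulin-like growth factor system, Igfbp3 and Igfbp7 rose and Igf2bp1 fell. Igfbp7, a secreted binding protein, went from 21.8–39.4 to 59.9–86.8 CPM (1.25, adjusted p = 0.00732), and Igf2bp1, an RNA-binding protein of embryonic growth and also on the list of let-7 targets, from 49.2–59.3 to 21.3–41.9 CPM (-0.68, adjusted p = 0.0228, up to 0.156 without E18.5 replicate 3). The ligands did not pass, with Igf1 at 414 ± 58.2 and 453 ± 91.1 CPM and Igf2 at 169 ± 22.3 and 223 ± 27.9 CPM. Imprinted growth genes split. Of 15 tested, Zim1, Plagl1 and Peg3 rose and Peg10 fell. Peg3, a zinc finger protein (chr7:6703892-6730431, minus strand), stood at 2548, 2254, 2079, 2236 and 2317 CPM at E16.5 and at 3039.9, 3616, 3832, 3363 and 3092 CPM at E18.5 (0.57 ± 0.10, adjusted p = 0.000189). Its neighbour Zim1 went from 309–387 to 650–965 CPM (1.18, adjusted p = 0.00112), and Peg10 from 83.9–133 to 46.4–63.3 CPM (-0.86, adjusted p = 0.0017). These 3 genes separated the ages and kept their calls without any single library, whereas Plagl1 (0.97, 0.0119) did not pass without E16.5 replicate 3 (0.0502) or E18.5 replicate 3 (0.116).

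Of 29 homeobox and forkhead genes of skull patterning, 22 estimates were negative, and 2 fell and 1 rose. Msx2, a homeobox factor of cranial bone growth that was also the only 1 of 14 osteoblast transcription factors to pass, went from 53–80.5 to 32.3–46 CPM (-0.78, adjusted p = 0.0268, up to 0.0873 without E16.5 replicate 3). Tbx15 fell as above, and Meis1 rose by 0.79 (adjusted p = 0.0483, up to 0.178 without E18.5 replicate 3) with overlapping ages and 18.3% of its exon bases shared with other genes. Runx2 and Sp7, which drive the osteoblast fate, did not pass, at 330.2 ± 50.8 and 411 ± 21.6 CPM and at 18 ± 7.9 and 18.2 ± 12.3 CPM, nor did Twist1, at 27.9 ± 2.47 and 27 ± 2.96 CPM. Among 20 suture mesenchyme and ectocranial genes only Igfbp3 passed, although 17 of the 20 estimates were positive. Of 18 genes of mature fibroblasts, Cd248, a stromal surface protein, fell from 72.9–113 to 37.2–52.9 CPM (-1.03, adjusted p = 0.00366).

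Few members of the metabolic and immune lists passed. Of 25 glycolysis and hypoxia genes, Pdk1 rose by 0.56 (adjusted p = 0.0389, up to 0.202 without E18.5 replicate 3). Of 13 glucocorticoid and circadian response genes, Klf9, a target of the glucocorticoid receptor, rose by 1.2 (adjusted p = 0.0123, up to 0.106 without E18.5 replicate 2). Of 17 interferon and complement genes 16 estimates were positive, the median log2 fold change was 0.68, the ages were apart in 8, and the summed level was 298 to 378 CPM at E16.5 and 469 to 736 CPM at E18.5. Over all genes tested the ages were apart in 11.7%. In the frontal SM libraries alone 8 of the 17 rose, where 7.12% of all genes rose. In the fit of all libraries no member of this list rose without E18.5 replicate 3. B2m, the light chain of MHC class I, rose from 99.1–128 to 141–228 CPM (adjusted p = 0.009), but not without E18.5 replicate 3 (0.0928). No member passed among 14 immediate early genes, 18 chemokines and cytokine receptors and 25 ribosomal proteins. Of the ribosomal proteins 24 estimates were positive (median 0.29), and in the frontal SM libraries alone 8 rose, or 17 without E18.5 replicate 3, where 6.34% of all genes rose.

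Markers of other cell types were read in the same libraries. Of 10 erythroid markers, all with negative estimates, Hbb-y, the embryonic beta-globin, fell, at 4.73, 8.02, 19.7, 7.87 and 6.05 CPM at E16.5 and 0, 0, 0.292, 0 and 0 CPM at E18.5 (adjusted p = 0.0248, up to 0.0799 without E18.5 replicate 2). The summed erythroid level was 945 to 1894 CPM at E16.5 and 157 to 1142 CPM at E18.5, so it overlapped through E18.5 replicate 1. Of 10 endothelial markers, all negative, Cdh5 fell from 175 ± 64.8 to 86.7 ± 25.4 CPM (adjusted p = 0.0309, up to 0.194 without E16.5 replicate 5), and the sums were 282 to 693 and 185 to 330 CPM. Of 10 neural markers none passed, with sums of 17.5 to 38.7 and 3.65 to 7.83 CPM and Olig2 at 0. The median log2 fold changes of the erythroid, endothelial and neural markers were -2.34, -0.74 and -2.45. In the frontal SM libraries alone 7, 5 and 6 of these markers fell and none rose, where 7.7% of all genes fell. Of 3 keratinocyte markers tested, Cdh1, an epithelial and arachnoid cadherin, fell from 4.79–29.8 to 0–0.939 CPM (adjusted p = 0.00967). E16.5 replicates 2 and 4 were its highest libraries (18.4 and 29.8 CPM), and the call was lost without both (adjusted p = 0.101). The keratinocyte markers had sums of 9.07 to 34.2 and 1.86 to 5.40 CPM. Of 9 markers of dura and meninges, Cldn11 fell and the SLRP Ogn rose. Their median was -0.57, and 8 of the 9 estimates were negative. Their sums, 597 to 859 and 690 to 1202 CPM, overlapped and reached higher at E18.5, but a large part of them was Ogn. Ogn alone ranged over 267–327 CPM at E16.5 and 447–958 CPM at E18.5, so the sums do not describe the other members. Of 10 hypodermis and dermis markers Tbx15 fell, and the median was -0.43. The sums overlapped at 1458 to 2047 and 1721 to 2282 CPM, but they included Prrx1, which is also the marker of the SM itself. Of 5 adipocyte markers Fabp4 rose, with sums of 14.3 to 24 and 40.7 to 49.95 CPM and Cidec and Lep at 0. Of 10 pericyte markers Ndufa4l2 rose while Rgs5 stood at 125 ± 55.5 and 125 ± 49.5 CPM. Of 5 Schwann cell markers Gap43 fell (-1.52, adjusted p = 0.0329, up to 0.138), although the median was positive (0.87). No marker of macrophages (10), osteoclasts (7), osteoblasts (10) or skeletal muscle (5) passed, and none of lymphocytes and neutrophils was tested. The part of these markers in the changes of other genes was not tested.

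**Figure D4:**
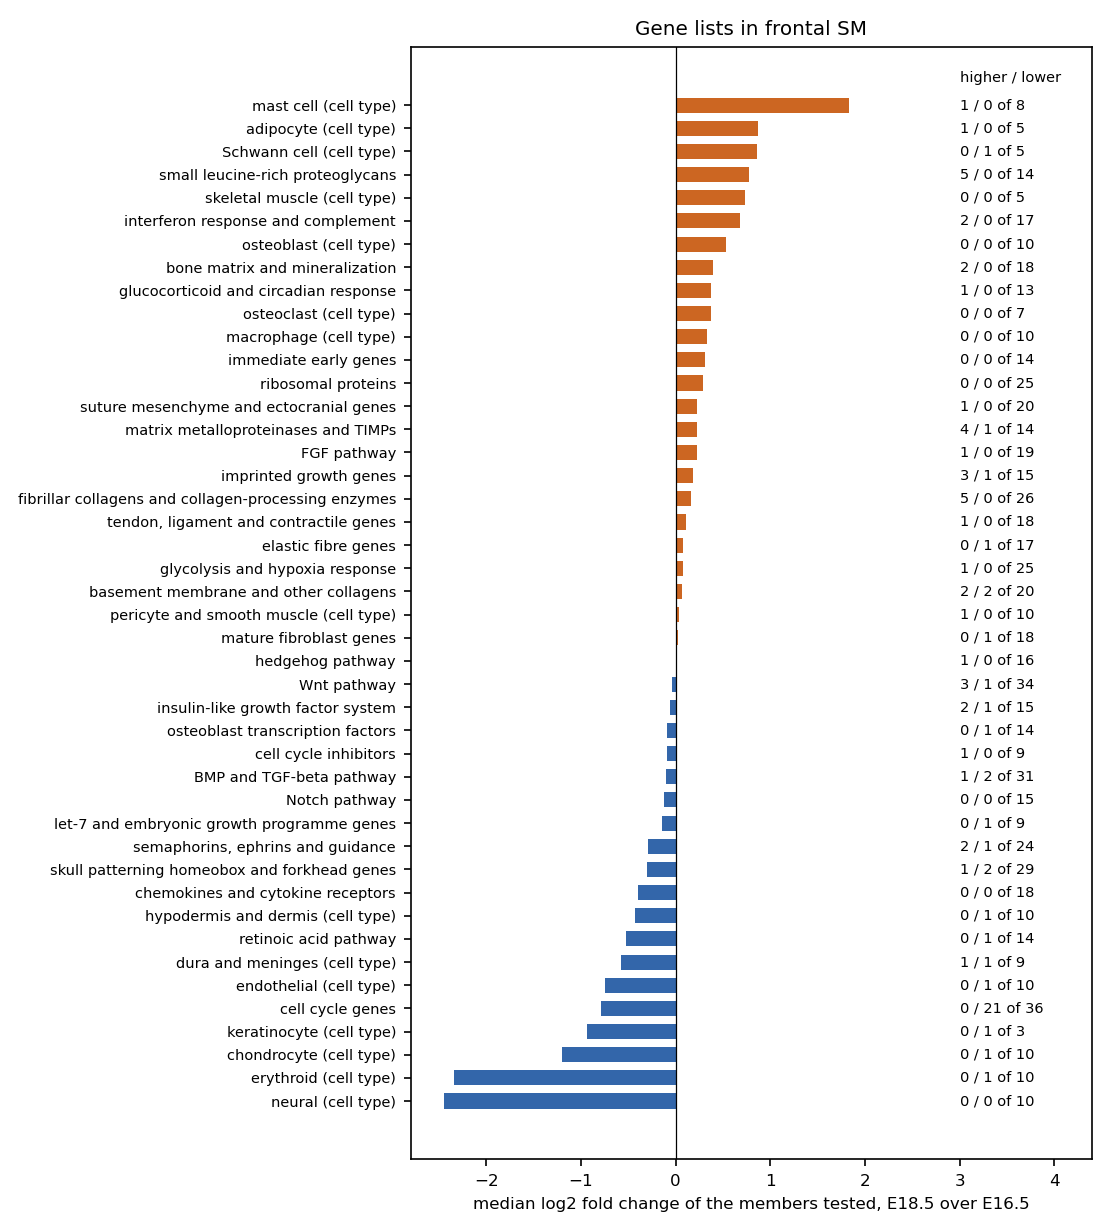
Median log2 fold change from E16.5 to E18.5 of the tested members of each gene list in frontal SM (bars, horizontal axis), with the numbers of members that rose and fell at an adjusted p under 0.05 and the number tested at the right. The cell cycle list has the most falls (21 of 36), and the SLRP list 5 rises of 14.

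In the OF of the same suture 858 genes (4.34%) were called. Of the 219 genes that rose in SM, 95 were also among the 433 (2.19%) that rose in OF, and of the 242 that fell, 116 were among the 425 (2.15%) that fell in OF, with the embryos in common. The difference of the changes was called for 1 gene (0.00506%), Capn6. In this edgeR test of all 100 libraries 684 genes had an unadjusted p under 0.05, fewer than chance alone would give. In the 20 frontal libraries alone 1567 of 19528 genes did, and 1321 with the embryo as a replicate block, both more than chance alone would give. DESeq2 called 5. On simulated counts the test of this difference recovered 2, 11, 29 and 40 of 50 genes changed 1.5-, 2-, 3- and 4-fold. Few calls therefore do not show that SM and OF changed alike. In OF Capn6 stood at 164 ± 56.7 CPM at E16.5 and 398 ± 78.9 CPM at E18.5 (SD, n = 5), a log2 fold change of 1.28 ± 0.19, and the rise in SM exceeded it by 1.62 ± 0.27 (adjusted p = 0.000863). In the 20 frontal libraries alone this difference was not called, but it was called there with the embryo as a replicate block. Among the other leading genes, Socs2 rose by 3.16 in SM and 1.72 in OF, a difference of 1.43 ± 0.32 that did not pass (adjusted p = 0.137). Igfbp3 changed by 2.06 and 0.8 (difference 1.25 ± 0.37, adjusted p = 0.688), and Ildr2 by -2.93 and -0.67 (difference -2.26 ± 0.79, adjusted p = 0.982).

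The SM of the other sutures gave 2124 calls (10.7%) for the mean change of coronal, sagittal and lambdoid SM, 5.14% higher and 5.6% lower. Of the 219 genes that rose in frontal SM, 78 also rose in this mean, and of the 242 that fell, 127 also fell. Socs2 rose in each of the 3, by 2.74, 2.27 and 2.55 in coronal, sagittal and lambdoid SM (adjusted p = 9.67e-15, 8.16e-12 and 6.90e-14). The frontal change differed from the mean change of these sutures in 174 genes (0.88%), higher in 88 (0.445%) and lower in 86 (0.435%). With total counts in place of TMM the split was 25 higher and 203 lower. In these sutures too each litter was of a single age, so litter cannot be told apart from age in the differences. Capn6 changed by 2.9 in frontal SM and 0.39 in the others (difference 2.52 ± 0.23, adjusted p = 2.25e-14). Its changes were -0.38, 0.68 and 0.86 in coronal, sagittal and lambdoid SM. Prelp rose in frontal SM and fell in the mean of the others (-1.23, difference 2.5 ± 0.40, adjusted p = 2.73e-05). In the same order its changes were -1.63, -0.69 and -1.35, of which the sagittal did not pass. Abi3bp had a mean change of 0.32 ± 0.16 in the others (difference 1.97, adjusted p = 8.61e-05), over a fall in coronal SM (-1.46, adjusted p = 6.55e-05), a rise in lambdoid SM (1.44, adjusted p = 0.000513) and 0.97 in sagittal SM (adjusted p = 0.0711), so the mean stands for no single suture. The differences of Ndufa4l2 (1.79, 0.0237) and of Ccdc141, a protein of cell migration (1.54, 0.013), also passed. Ndufa4l2 rose in coronal SM as well (1.79, adjusted p = 0.000186), with 0.07 and 0.21 in sagittal and lambdoid SM. Its difference was lost without E16.5 replicate 2 (0.0639), E16.5 replicate 3 (0.0982) or E18.5 replicate 2 (0.0547), and that of Ccdc141 without E18.5 replicate 3 (0.0661).

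Of the genes with a lower change in frontal SM, the 5 named by the rule all rose in the mean of the other sutures and did not rise in frontal SM. Trpm3 fell in frontal SM and rose in that mean (1.51, with no single suture past the test, difference -4.51 ± 1.03, adjusted p = 0.00921). Tgfbi, a collagen-binding protein induced by TGF-beta, stood at 15.2, 33.5, 18.9, 18.3 and 19.1 CPM at E16.5 and at 18.48, 18.8, 14.1, 20.3 and 23 CPM at E18.5 in frontal SM, and rose by 2.3 in the mean of the others, past the test in each of the 3 (difference -2.44 ± 0.46, adjusted p = 0.000562). Enpp1, which makes the mineralization inhibitor pyrophosphate, stood at 23.3 ± 5.5 and 19.7 ± 6.42 CPM in frontal SM and rose by 2.16 in the mean of the others, again in each of the 3 (difference -2.4 ± 0.39, adjusted p = 4.37e-05). Dpt, a dermal matrix protein, and Rgs5, a pericyte marker, differed by -2.8 and -2.13 (adjusted p = 0.0196 and 0.0424), but these calls were lost without 4 and 8 of the frontal libraries (up to 0.0761 and 0.156). In the other sutures Dpt changed by 4.86 (coronal), 1.03 (sagittal) and -0.81 (lambdoid), of which only the coronal passed, and Rgs5 by 0.51, 2.73 and 3.14, of which the coronal did not pass. The endothelial markers moved with this difference, since 6 of the 10 rose in the mean of the other sutures and none rose in frontal SM. The change was lower in frontal SM for 4 of these markers, Cdh5 among them. Their part in the other differences was not tested. Without E18.5 replicate 3 the count of 174 was 70, and without E16.5 replicates 2 and 4 it was 61.

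**Figure D5:**
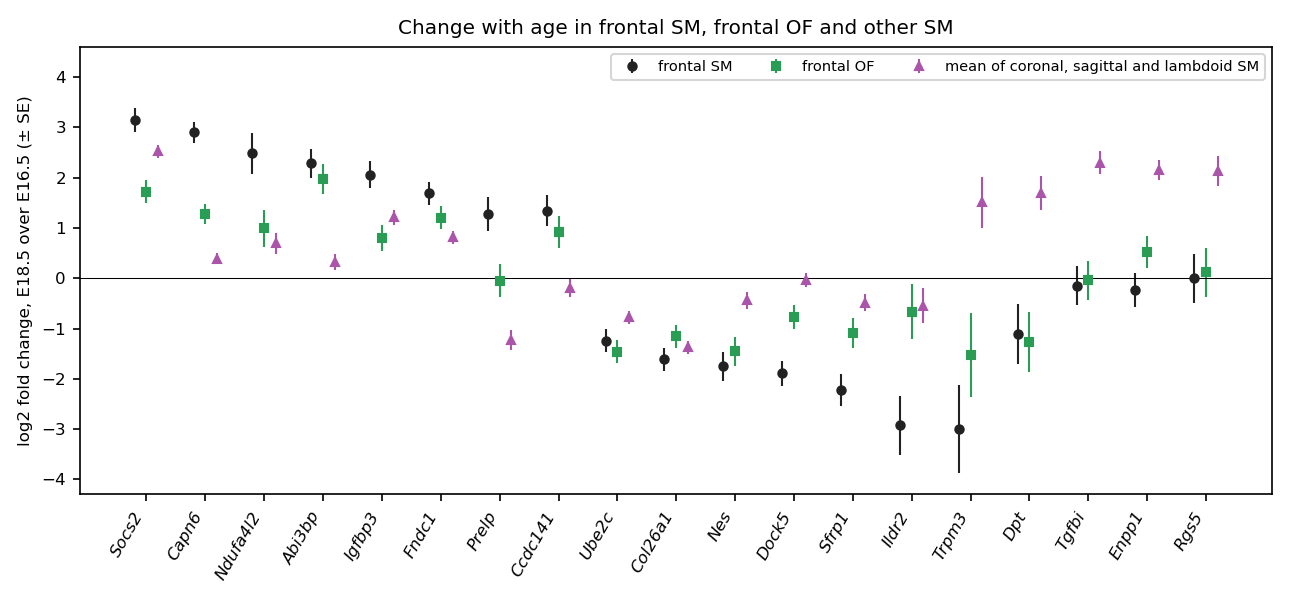
Log2 fold change from E16.5 to E18.5 with its standard error for 19 genes in frontal SM (circles), frontal OF (squares) and the mean of coronal, sagittal and lambdoid SM (triangles). For Capn6 the frontal SM value lies above both others, and Tgfbi, Enpp1 and Rgs5 lie near 0 in frontal SM and above 2 in the mean of the other sutures.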

How the data were processed

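Suture mesenchyme (SM) and osteogenic front (OF) were cut by laser capture from sections of single wild-type embryos. RNA was extracted with Arcturus PicoPure and DNase, amplified with Ovation RNA-Seq V2, made into Nextera XT libraries and sequenced on an Illumina HiSeq. The authors trimmed reads with cutadapt, aligned them to mm10 with STAR 2.5.3a and counted them per gene over exons with featureCounts 1.6.4, without strand. The deposited values are whole-number counts, not normalized, for 55487 genes, of which 55394 were matched to a GENCODE vM21 name. Reads of overlapping genes on opposite strands cannot be told apart. Of 89 named genes 22 shared some exon bases with another gene, and 7 shared over 10%.

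The 100 first LCM libraries entered 1 fit in edgeR 4.0.16 (R 4.3.3), with TMM factors, genes of at least 1 CPM in over 10% of libraries and a mean for each of 20 groups of suture, region and age. Contrasts were tested with the quasi-likelihood F-test at a Benjamini-Hochberg adjusted p under 0.05. The SE is the absolute log2 fold change over the root of F. Exact permutation tests of log2 CPM (prior count 1) drew all 252 arrangements. On simulated counts for this comparison with 19768 genes, 7, 25, 42 and 47 of 50 genes changed 1.5-, 2-, 3- and 4-fold were recovered, with 6 false calls. Alternatives used limma 3.58.1 and DESeq2 1.42.0, and 47 count files were not used.

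Genes were named if protein-coding, called, at a mean of at least 10 CPM and apart between ages (15 largest changes each way), if among up to 4 members of smallest adjusted p of a list or its defining members, or if among the 5 at each end of the differences from OF and other SM. Plk1 and Mmp13 were added after their values were seen. Some results are not reported here. The members and gene lists were chosen with earlier results of these data known.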

Additional observations from a re-analysis of the deposited data

Results flagged for a closer look

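The highest or lowest of 5 embryos stood apart from the others by Dixon's test in 10 of the 184 sets of 5 values examined for the genes named, where chance alone flags about 1 in 20, and 5 of the 10 were in E18.5 replicate 3. In that library Plk1 was low at 2.62 CPM, Col12a1 low at 8659 CPM and Plod2 high at 105 CPM, the embryonic globin Hbb-y was the only non-zero value at 0.292 CPM, and the meningeal marker Cldn11 was at 0 CPM. At E18.5, Tnn was low in replicate 5 (171 CPM) and Epha7 low in replicate 2 (36.7 CPM). At E16.5, Mcpt4 was low in replicate 3 (0.142 CPM), Pdk1 was low in replicate 4 (32.8 CPM), and Gli1 was low in replicate 5 (3.37 CPM).

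The change of Capn6 with age was larger in frontal SM than in frontal OF by 1.62 on the log2 scale. Against the mean of the other SM the change in frontal SM was higher for Capn6 (2.52), Prelp (2.5), Abi3bp (1.97), Ndufa4l2 (1.79) and Ccdc141 (1.54). It was lower for Trpm3 (-4.51), Dpt (-2.8), Tgfbi (-2.44), Enpp1 (-2.4) and Rgs5 (-2.13). Each of these differences passed the test of the interaction itself, with the adjusted p and the libraries it depended on given above, and without E16.5 replicates 2 and 4 5 of the 10 against the other SM did not pass.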

How the results depend on the processing

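None of the 84 passing genes described singly in the report turned its direction in an alternative that gave it a value, which DESeq2 did for 79 and library sizes without mitochondrial, haemoglobin and ribosomal RNA genes for 83. The count of 461 genes became 2831 in the frontal SM libraries alone, 2791 there without E18.5 replicate 3, 1063 in the 20 frontal libraries, 698 with total counts in place of TMM, 158 without E16.5 replicates 2 and 4 and 8 when tested against a log2 fold change of 1. With 1 library left out in turn it ran from 206 (without E18.5 replicate 3) to 462. The share of higher calls was 47.5%, but 12.3% with total counts, where the median of all genes was -0.203, and 60.3% with limma-voom. For the difference from the other SM it was 50.6%, and 11.0% with total counts. The difference from OF was called for 5 genes by DESeq2, 0 in the frontal libraries alone and 1 to 2 with a library left out. The difference from the other SM was called for 290 genes by DESeq2, 287 in the SM libraries alone, 61 without E16.5 replicates 2 and 4 and 70 to 180 with a library left out. The settings without E16.5 replicates 2 and 4, and the frontal SM libraries without E18.5 replicate 3, were chosen after seeing the data. The cause of these changes was not tested.

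A number does not tie an E16.5 to an E18.5 embryo (correlations of deviations -0.0255 to 0.1018, 1 of 5 pairs over 0.1), and a replicate block in the frontal SM libraries alone gave 2516 calls. SM and OF of a number came from 1 embryo (correlations -0.4201 to 0.4262, 6 of 10 over 0.1). With the embryo as a replicate block the difference from OF was called for 3 genes, Capn6 among them. Of these 84 calls, 61 stood with counts summed per litter, 63 with limma-voom, 65 with total counts, 38 without E16.5 replicates 2 and 4 and 5 against a log2 fold change of 1.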

Other observations

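Gene groups that were chosen after their values were seen are given here as values only, with the counts of members tested that passed in frontal SM beside 1.11% of all genes for rises and 1.22% for falls. Of 45 histone genes of the replication-dependent clusters, 6 fell and none rose, 40 estimates were negative and the median log2 fold change was -1.12, but none of the falls passed without E18.5 replicate 3. In OF, where 2.15% of all genes fell, 17 of the 45 fell. Of 18 genes of serine and asparagine synthesis and amino acid transport, 3 fell, 1 of them without E18.5 replicate 3. They were Psat1 (-1.03, adjusted p = 0.00211), Mthfd2 (-1.18, 0.0173) and Slc7a1 (-0.83, 0.0272). Of 20 cytosolic aminoacyl-tRNA synthetases, Aars fell (-1.03, adjusted p = 0.0017).

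Of 21 circadian clock genes, 4 rose and none fell, 2 of the 4 without E18.5 replicate 3. Beside Npas2 they were Rora (1.17, adjusted p = 9.79e-06), Nr1d2 (1.14, 0.0298) and Bhlhe41 (1.11, 0.0375). Of 9 genes of folliculin, its FNIP partners and the TFE factors with their targets, 3 rose, 1 without E18.5 replicate 3. Gpnmb, a lysosomal glycoprotein, ranged over 0.318–1.45 CPM at E16.5 and 5.85–11.5 CPM at E18.5 (3.12, adjusted p = 0.0264), and Fnip1 and Flcn changed by 1.18 and 1.13 (adjusted p = 1.17e-05 and 0.013). Of 9 genes of growth hormone and STAT5 response, Socs2 and the receptor Ghr rose (0.87 for Ghr, from 115–134 to 187–295 CPM, adjusted p = 0.00192). Of 20 autophagy and protein breakdown genes, Retreg1, the ubiquitin ligase Fbxo32 (1.47, adjusted p = 0.0411) and Klhl24 (1.14, 0.00046) rose, 2 of the 3 without E18.5 replicate 3.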
